A study of Mus musculus with 2 samples.

Results

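The mammalian circadian clock genes were followed in T cells that have not yet met antigen, of the CD4 (helper) and the CD8 (cytotoxic) lineage. The set held 10 genes, taken by symbol from the 23167 gene symbols of the deposited tables: Arntl, Clock, Per1, Per2, Per3, Cry1, Cry2, Nr1d1, Nr1d2 and Dbp. All 10 were found and all were above 0 in both libraries. The study sequenced ribosomal-RNA-depleted total RNA from Foxp3-GFP mice on a C57/BL6 background, in a series on 5-hydroxymethylcytosine in T cells. The naive CD4 group was 1 library of spleen and lymph node cells sorted by flow cytometry for high CD62L and low CD44, without CD25 or Foxp3-GFP. The naive CD8 group was 1 library of cells from the same organs with the same gates. The sources used here do not give the age of the mice, how many were pooled, or the time of day of either collection. Each level is therefore that of a single collection, and no difference below has a replicate check or a p-value.

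The clock is a feedback loop of transcription. ARNTL (also called BMAL1) and CLOCK form a dimer that binds E-box sequences and activates the Period and Cryptochrome genes, whose proteins accumulate, return to the nucleus and inhibit that dimer. A further loop runs through the REV-ERB receptors (Nr1d1 and Nr1d2), which repress Arntl, and through PAR bZIP factors such as DBP, which act at D-box sequences. In lymphocytes the loop is known to run in time with the light cycle and with glucocorticoids, so the level of most of these transcripts depends on the hour of sampling.

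The library totals behind the deposited RPKM (reads scaled to gene length and library total, so that genes can be compared with each other) were inferred from the values as 24741945 reads for naive CD4 and 23853921 reads for naive CD8. At these totals 54.25% of low genes had a whole-number length, and the recovered gene reads summed to 1.11 times the total in naive CD4 and 1.12 times in naive CD8, an excess whose cause was not tested. Read counts of some genes may thus be too high, and the intervals use the fewest whole reads that a gene's values allow. Ratios below are the RPKM in naive CD4 over the RPKM in naive CD8, and the 95% interval beside each is the exact one of Clopper and Pearson for the gene's reads, covering counting error only. The log2 difference is log2((CD4 RPKM + 1)/(CD8 RPKM + 1)), and 10228 genes that reached 1 RPKM in either library were compared on it. The T cell marker Cd3g was at 673 RPKM in naive CD4 and 694 RPKM in naive CD8. Of the CD4 lineage markers, Cd4 was at 305 RPKM in naive CD4 and 8.89 RPKM in naive CD8, and Zbtb7b at 51.8 RPKM in naive CD4 and 1.25 RPKM in naive CD8. Of the CD8 lineage markers, Cd8a was at 2.50 RPKM in naive CD4 and 518 RPKM in naive CD8, and Cd8b1 at 21.4 RPKM in naive CD4 and 788 RPKM in naive CD8. None of 10 housekeeping genes was past 2-fold, and 5 were higher in naive CD4. The markers of other cell types that follow were each at 2.15 RPKM or less in both libraries. The clock genes Per2, Per3 and Nr1d1 were also below that level in both. The B cell marker Ms4a1 was at 0.394 RPKM in naive CD4 and 0.348 RPKM in naive CD8. The 3 myeloid markers summed to 3.48 RPKM in naive CD4 and 2.88 RPKM in naive CD8, but went opposite ways. Lyz2, the highest, was at 1.65 RPKM in naive CD4 and 2.15 RPKM in naive CD8, a ratio of 0.768 (0.502 to 1.17), and Itgam was at 1.62 RPKM in naive CD4 and 0.559 RPKM in naive CD8, a ratio of 2.89 (1.91 to 4.49). Both erythroid markers were listed at 0. The NK marker Klrb1c was at 0.0308 RPKM in naive CD4 and 1.36 RPKM in naive CD8, while Ncr1 was at 0.111 RPKM in naive CD4 and listed at 0 in naive CD8. The regulatory T cell factor Foxp3 was at 1.40 RPKM in naive CD4 and 0.161 RPKM in naive CD8. Il2ra (CD25), used as a gate, was at 0.421 RPKM in naive CD4 and 0.218 RPKM in naive CD8. The part of cells with these markers in the clock gene values was not tested. In such bulk libraries fewer cells of a type and less RNA per cell cannot be told apart.

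All 10 clock genes were expressed at low to middling levels, with Per1 and Dbp differing most between the libraries and in opposite directions. All 3 Period genes and Nr1d2 were lower in naive CD4 than in naive CD8, while Dbp, Cry2 and, by a little, Arntl were higher in naive CD4. These 7 kept the sign of their log2 difference under each scaling tried, some of them narrowly. Arntl was at 0.09 when centred on the median gene, and Per2 and Nr1d2 at -0.14 and -0.11 when rescaled to an equal RPKM sum. That rescaling put 6 of the 10 values outside the counting intervals of the deposited scale. The intervals of Clock, Cry1 and Nr1d1 spanned 1, and these 3 turned from above to below 0 on the log2 scale when the libraries were centred on the median gene. Of the 10 genes, 8 were at 1 RPKM or more in at least 1 library, and Per3 and Nr1d1 were below it in both. None of the 8 compared genes had an absolute log2 difference of 1 or more, the 2-fold rule, which 5.48% of all compared genes passed. By the ratio of RPKM without a pseudocount, 1 of the 8 was past 2-fold, Per1, against 8.75% of 10181 genes. Of the 8, 5 had a log2 difference above 0 and 3 below 0, against 59.5% above and 40.5% below among all compared genes. The counting interval of the ratio lay wholly above 1 for 3 of the 8 (43.4% of genes), wholly below 1 for 3 (25.9% of genes) and across 1 for 2. Of 10137 compared genes with recovered reads, 69.3% had an interval on 1 side of 1, so a share of 6 in 8 was near the background. Rescaling both libraries to an equal RPKM sum moved the median log2 difference of all compared genes by 0.21, and put Dbp, at 1.13, past 2-fold, with Per1 at -0.84. The median absolute log2 difference was 0.26 for the 8 clock genes and 0.25 for all compared genes.

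**Figure D1:**
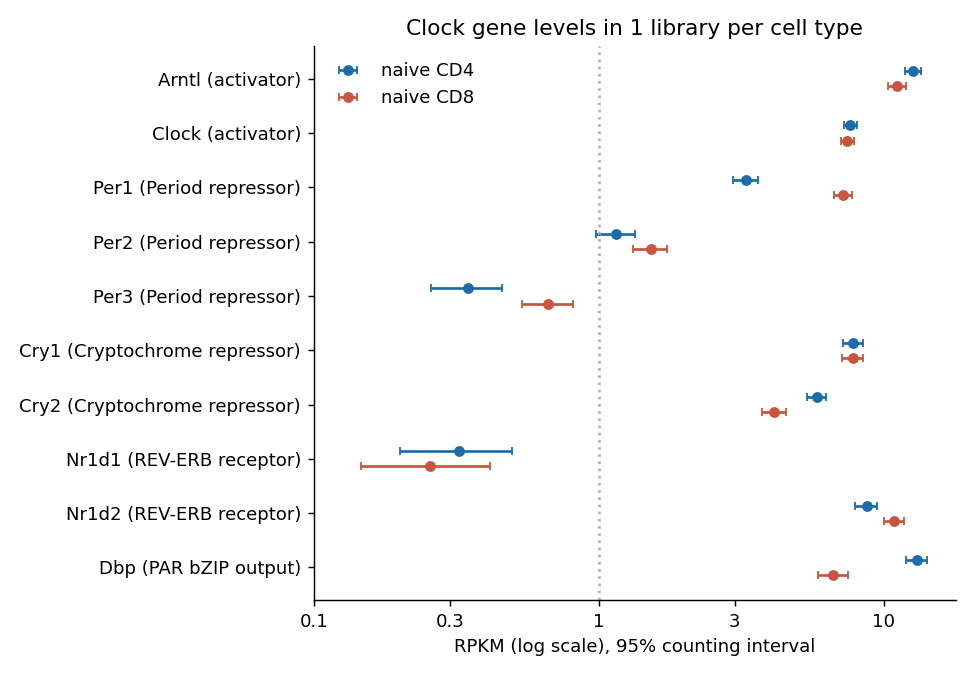
RPKM of each clock gene on a log axis in naive CD4 (blue, upper point of each pair) and naive CD8 (red, lower point), 1 library each, with 95% Poisson counting intervals; the dotted line marks 1 RPKM. Per1 sits at 3.28 RPKM in naive CD4 and 7.19 RPKM in naive CD8, Dbp at 13.0 RPKM in naive CD4 and 6.64 RPKM in naive CD8, and the Clock and Cry1 pairs overlap.

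The activators were present in both cell types at close to equal levels. Arntl, which encodes BMAL1, was at 12.6 RPKM (903 reads) in naive CD4 and 11.1 RPKM (765 reads) in naive CD8. The ratio was 1.14 (1.03 to 1.25), with an interval just above 1. Clock, its dimer partner and a histone acetyltransferase, was at 7.63 RPKM (1408 reads) in naive CD4 and 7.44 RPKM (1323 reads) in naive CD8, a ratio of 1.03 (0.951 to 1.11). The Arntl level was thus 1.66 times the Clock level in naive CD4 and 1.49 times in naive CD8. The alternative partners of the loop were nearly silent. Npas2, the CLOCK paralog, was at 0.00972 RPKM in naive CD4 and listed at 0 in naive CD8, and Arntl2, the BMAL1 paralog, was listed at 0 in naive CD4 and at 0.0729 RPKM in naive CD8.

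The Period genes encode the rate-limiting repressors of the loop, and all 3 had a ratio under 1. Per1, also an acutely inducible gene in many tissues, was at 3.28 RPKM (379 reads) in naive CD4 and 7.19 RPKM (802 reads) in naive CD8. Its ratio of 0.456 (0.402 to 0.515) was the lowest of the set, and its log2 difference of -0.94 was larger in size than that of 93.8% of compared genes or equal to it. Per2, whose protein carries much of the rhythm in mouse, was at 1.15 RPKM (165 reads) in naive CD4 and 1.52 RPKM (211 reads) in naive CD8, a ratio of 0.754 (0.611 to 0.929). Per3, the Period gene least needed for the mouse rhythm, was at 0.347 RPKM (51 reads) in naive CD4 and 0.664 RPKM (94 reads) in naive CD8. Its ratio was 0.523 (0.364 to 0.743), in a gene below 1 RPKM in both libraries. The 3 genes kept the order Per1, Per2, Per3 in both cell types, with no overlap of the counting intervals between neighbours. Their summed level was 4.77 RPKM in naive CD4 and 9.38 RPKM in naive CD8, of which Per1 made up 68.7% in naive CD4 and 76.7% in naive CD8.

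**Figure D2:**
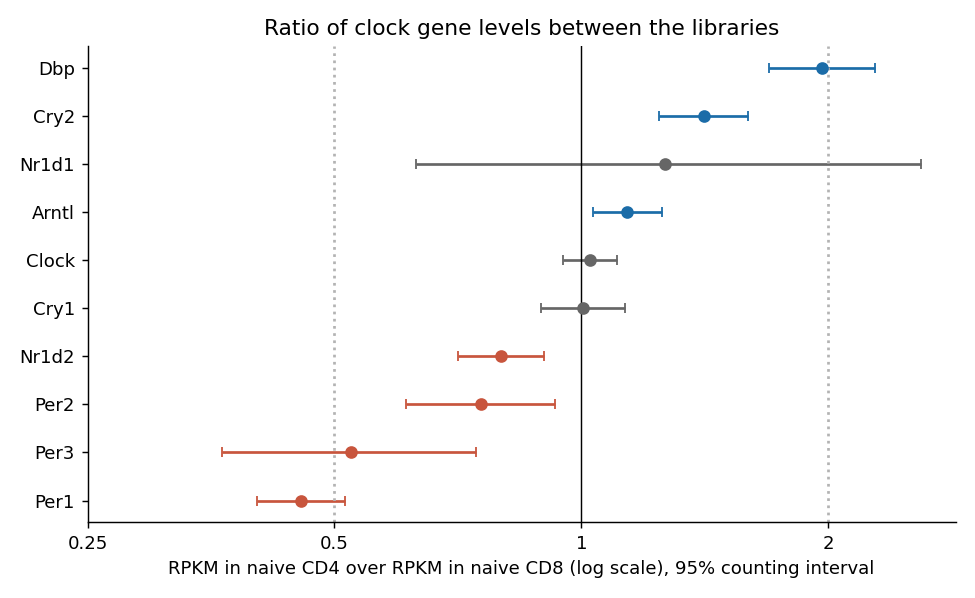
Ratio of RPKM in naive CD4 to naive CD8 for each clock gene on a log axis, with 95% counting intervals from 1 library per cell type; blue marks intervals wholly above 1, red wholly below 1 and grey those that span 1, and dotted lines mark 2-fold. The Period genes and Nr1d2 lie below 1, from Per1 at 0.456 to Nr1d2 at 0.799, and Dbp at 1.96 lies farthest above it.

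Promoter sequences of Per1 and Per3, both lower in naive CD4, and of Cry1, which was near equal, are shown for the clock elements they carry. Each stretch is 240 bases of RefSeq sequence (build GRCm38.p6) from 250 to 11 bases before the annotated start, given 5′ to 3′ on the strand of the gene, and none of the 3 holds annotated exon bases of its gene. They lie at chr11:69098699-69098938 (plus strand) for Per1, chr4:151044676-151044915 (minus strand) for Per3 and chr10:85185065-85185304 (minus strand) for Cry1. Capitals mark matches to the E-box CACGTG, to the E'-box CACGTT or to a D-box spelled TTATGTAA, TTATGCAA or TTACGTAA, on either strand.
Per1: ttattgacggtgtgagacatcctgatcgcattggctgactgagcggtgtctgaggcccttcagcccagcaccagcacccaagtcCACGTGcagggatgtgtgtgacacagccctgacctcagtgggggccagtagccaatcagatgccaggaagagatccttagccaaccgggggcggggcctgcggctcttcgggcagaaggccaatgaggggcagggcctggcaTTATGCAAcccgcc
Per3: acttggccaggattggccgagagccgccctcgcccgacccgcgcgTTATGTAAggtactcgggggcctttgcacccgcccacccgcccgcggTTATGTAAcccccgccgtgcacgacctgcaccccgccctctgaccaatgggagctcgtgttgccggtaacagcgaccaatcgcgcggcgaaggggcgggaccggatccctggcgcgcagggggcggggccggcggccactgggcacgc
Cry1: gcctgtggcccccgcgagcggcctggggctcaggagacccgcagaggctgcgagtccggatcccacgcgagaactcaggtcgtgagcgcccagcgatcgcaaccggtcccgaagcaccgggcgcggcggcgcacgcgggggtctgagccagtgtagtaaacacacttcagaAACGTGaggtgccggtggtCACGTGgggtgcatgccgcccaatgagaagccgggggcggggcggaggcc
The Per1 stretch held 1 E-box, 166 bases before the start, and 1 D-box at 24 bases. The Per3 stretch held 2 D-boxes, 205 and 158 bases before the start. The Cry1 stretch held 1 E'-box at 79 bases and 1 E-box at 60 bases. For background, 7.15% of 32851 RefSeq promoter windows, from 250 bases before to 50 after a start, held this E-box, 4.68% the E'-box and 1.78% a D-box of these spellings. Sequences were found for 9 of the 10 genes, in 13 windows. Here a gene counts if any of its windows matched, while the background is per window. Of the 9, Cry1 and Per1 had an E-box, Cry1, Cry2 and Nr1d1 had an E'-box, and Per1 and Per3 had a D-box. The other Per1 window, at chr11:69099902-69100201, held none of these. These are matches of letters in a short window and do not show binding.

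The Cryptochromes are the partners of the Period proteins in the repressor complex, and only Cry2 of the pair differed beyond counting error. Cry1, the stronger repressor in mouse cells, was at 7.81 RPKM (580 reads) in naive CD4 and 7.78 RPKM (557 reads) in naive CD8, a ratio of 1.004 (0.892 to 1.13). Cry2 was at 5.81 RPKM (626 reads) in naive CD4 and 4.12 RPKM (428 reads) in naive CD8, a ratio of 1.41 (1.25 to 1.60). The Cry1 level was 1.34 times the Cry2 level in naive CD4 and 1.89 times in naive CD8. Cry2 overlaps the antisense gene D930015M05Rik, listed at 0 in both libraries, over 4.67% of its exon bases.

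The REV-ERB receptors, heme-binding repressors of Arntl, differed mostly from each other. Nr1d2 (REV-ERB beta) was at 8.69 RPKM (at least 498 reads) in naive CD4 and 10.9 RPKM (at least 601 reads) in naive CD8, a ratio of 0.799 (0.708 to 0.901). It shares 6.0% of its stretches of 50 bases with another annotated gene, AC170187.1, where reads could be split. Nr1d1 (REV-ERB alpha) was at 0.324 RPKM (21 reads) in naive CD4 and 0.256 RPKM (16 reads) in naive CD8. Its ratio of 1.27 had an interval of 0.629 to 2.59, so a difference was not detectable at this depth. The Nr1d2 level was 26.8 times that of Nr1d1 in naive CD4 and 42.5 times in naive CD8. Both multiples rest on the 21 and 16 reads of Nr1d1, and a difference between them was not tested. In GENCODE M21, 263 of the 3077 exon bases of Nr1d1 (8.55%) lie across from exons of Thra on the opposite strand. The strand setting of the counting is not given in the sources used here, so Nr1d1 reads cannot be told apart from Thra reads there, and both values are uncertain. The element through which these receptors and the ROR activators act on Arntl (RORE, searched on both strands) was found in 1 of the 13 windows and in 0.219% of all windows. That match, in capitals below, lies just after an annotated start of Arntl, in its own exon, at chr7:113207528-113207557 (GRCm38.p6, plus strand).
Arntl: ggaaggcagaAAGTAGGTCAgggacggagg

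Dbp, a PAR bZIP activator and a direct output of the ARNTL and CLOCK dimer, had the highest ratio of the set. It was at 13.0 RPKM (540 reads) in naive CD4 and 6.64 RPKM (265 reads) in naive CD8. The ratio was 1.96 (1.69 to 2.28), and the log2 difference of 0.88 was at least as large in size as that of 92.9% of compared genes. Per1, which the same dimer activates, was lower in naive CD4 where Dbp was higher, and the Dbp level was 3.98 times the Per1 level in naive CD4 and 0.923 times in naive CD8. That comparison within a library does not depend on how the libraries were scaled. Dbp overlaps Sphk2 on the opposite strand over 539 of 2993 exon bases (18.0%). It shares 27.5% of the 50-base stretches of its longest transcript with Sphk2, and the strand setting is not given. Sphk2, a sphingosine kinase gene, was at 12.3 RPKM in both libraries, and its part in the Dbp reads was not tested. Tef, the related PAR bZIP gene, was at 11.3 RPKM in naive CD4 and 10.3 RPKM in naive CD8, a ratio of 1.09 (1.01 to 1.19). Hlf, the remaining one, was at 0.00714 RPKM in naive CD4 and listed at 0 in naive CD8.

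**Figure D3:**
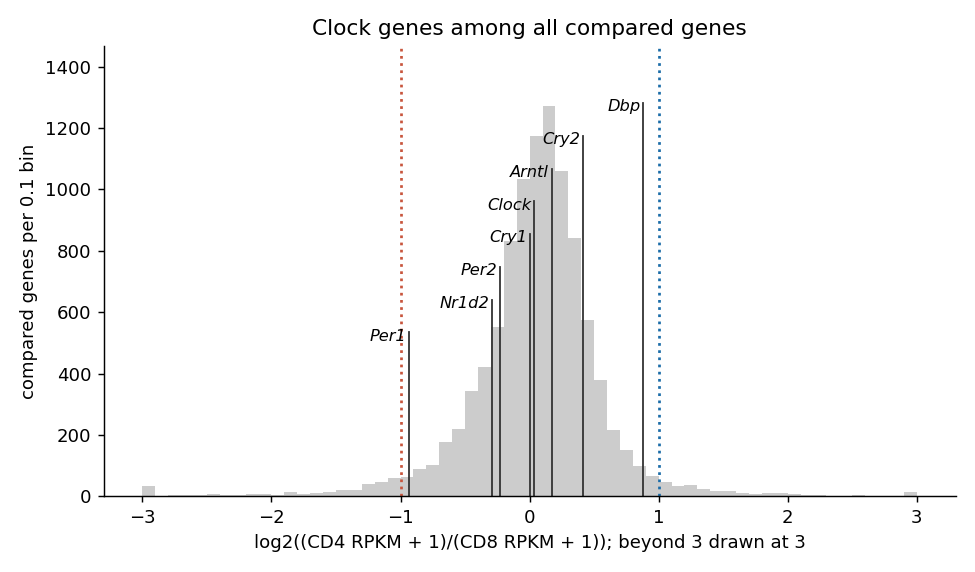
Histogram of the log2 difference (CD4 minus CD8, pseudocount of 1 RPKM) over the 10228 compared genes, with lines at the 8 compared clock genes (line height only separates the names) and dotted lines at the 2-fold rule. Per1 at -0.94 and Dbp at 0.88 stand near the edges of the distribution inside the rule, and the other 6 lie in its body.

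The order of levels differed between the cell types mainly through Dbp and Per1. In naive CD4 the order was Dbp, Arntl, Nr1d2, Cry1, Clock, Cry2, Per1, Per2, Per3 and Nr1d1. The intervals of Dbp and Arntl, of Nr1d2 and Cry1, of Cry1 and Clock, and of Per3 and Nr1d1 overlapped. In naive CD8 it was Arntl, Nr1d2, Cry1, Clock, Per1, Dbp, Cry2, Per2, Per3 and Nr1d1. There Arntl and Nr1d2 overlapped, as did each neighbouring pair from Cry1 through Clock and Per1 to Dbp. Dbp was first in naive CD4 and in place 6 in naive CD8, and Per1 was in place 7 in naive CD4 and in place 5 in naive CD8. Among all compared genes the Arntl level was at percentile 46.6 in naive CD4 and 44.1 in naive CD8, so even the highest clock genes were near the middle of the expressed genes.

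A list of 37 further clock pathway genes put the 10 in context, and 30 of them were compared. Of these, 1 was at least 2-fold higher in naive CD4 and 2 were at least 2-fold lower, against 2.41% (247 genes) and 3.07% (314 genes) of all compared genes, or 517 and 285 genes after rescaling to the same sum. Csnk1e, the casein kinase that phosphorylates Period proteins and marks them for degradation, was at 17.01 RPKM (1157 reads) in naive CD4 and 7.32 RPKM (480 reads) in naive CD8, a ratio of 2.32 (2.09 to 2.59). Its partner kinase Csnk1d was near equal, at 36.1 RPKM in naive CD4 and 37.4 RPKM in naive CD8. Csnk1e overlaps the antisense gene Gm16059 over 4.05% of its exon bases and shares 5.28% of its stretches of 50 bases with it. The part of Gm16059 in the Csnk1e reads was not tested. Nfil3, which represses at D-boxes, the sites where DBP activates, was at 1.16 RPKM (57 reads) in naive CD4 and 4.19 RPKM (199 reads) in naive CD8, a ratio of 0.276 (0.202 to 0.372). Bhlhe40 (DEC1), a repressor that competes for E-boxes, was at 0.169 RPKM (13 reads) in naive CD4 and 1.48 RPKM (110 reads) in naive CD8, a ratio of 0.114 (0.0588 to 0.203). Ciart (CHRONO, listed under its older symbol Gm129), another repressor of the ARNTL and CLOCK dimer, was at 1.66 RPKM in naive CD4 and 3.05 RPKM in naive CD8, a ratio of 0.544 (0.386 to 0.760), and it shared 15.1% of its stretches of 50 bases with Gm9176.

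Most of the list was within 2-fold. Its median log2 difference was 0.10, against 0.08 for all compared genes, and 27 of the 30 were inside the rule. Of the 30, 19 were above 0 and 11 below, or 16 and 14 when centred on the median gene and 23 and 7 when rescaled to an equal sum, so directions of small differences depend on the scaling. By role, 9 of 11 cofactors, 4 of 6 kinases, 3 of 4 ubiquitin ligases or deubiquitinases, 1 of 2 genes of the stabilizing loop, 1 of 4 outputs and neither of the compared repressors were above 0, against 59.5% of all compared genes, and these small counts are given as a description. The highest kinase, Csnk2a1, was at 63.4 RPKM in naive CD4 and 64.5 RPKM in naive CD8. Nono, a Period-binding cofactor, was at 153 RPKM in naive CD4 and 123 RPKM in naive CD8. Nampt, a clock output in NAD synthesis, was at 12.5 RPKM in naive CD4 and 14.1 RPKM in naive CD8. Timeless, which like Csnk1d was chosen for mention after its value was known, was at 20.1 RPKM in naive CD4 and 11.6 RPKM in naive CD8, a ratio of 1.73 (1.61 to 1.86). Of the 7 genes not compared, Bhlhe41 was listed at 0 in both libraries, and Rorb and Fbxl21 were below 1 RPKM in both.

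**Figure D4:**
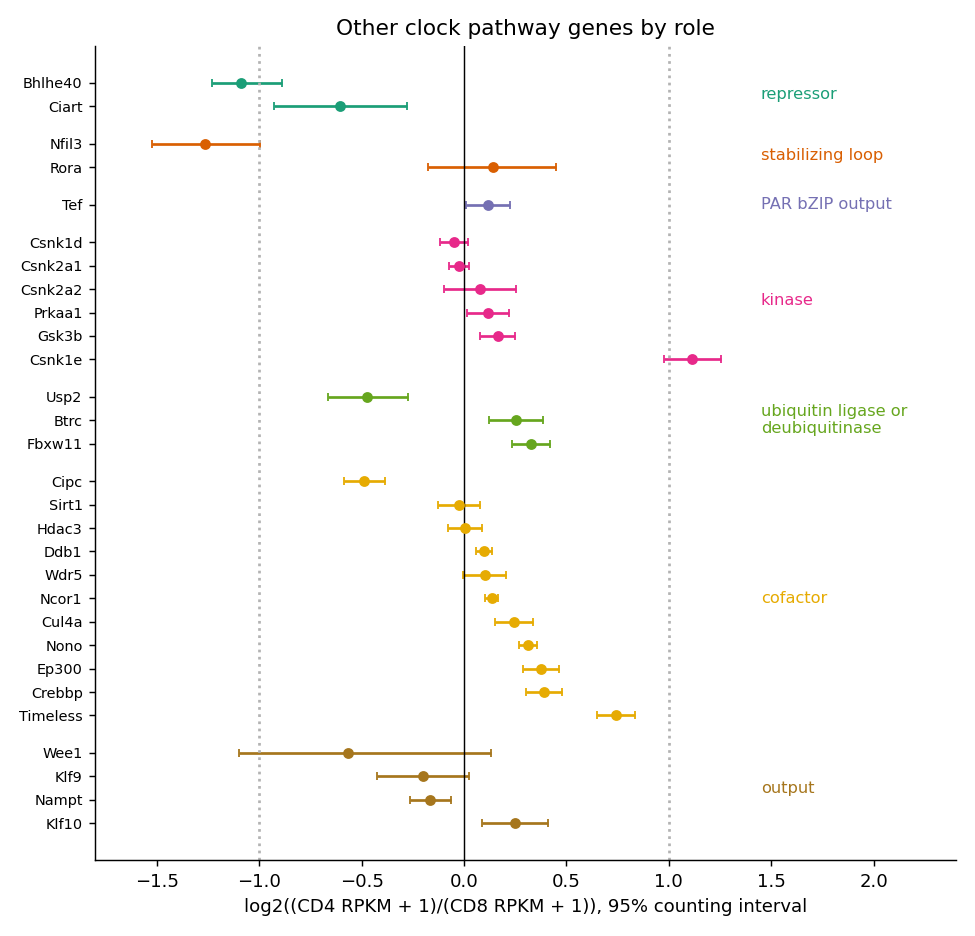
Log2 difference (CD4 minus CD8, pseudocount of 1 RPKM) of the compared genes of the wider clock list that are reported here, grouped and coloured by role, with 95% counting intervals and dotted lines at the 2-fold rule. Csnk1e is past the rule toward naive CD4 at 1.11, and Bhlhe40 and Nfil3 toward naive CD8 at -1.09 and -1.27.

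Per1 is also induced by glucocorticoids and by cell stimulation, and 2 short lists of such genes were read beside it. Of 5 glucocorticoid-induced genes 4 were compared, 1 with a log2 difference above 0 and 3 below it (40.5% of all compared genes were below), with a median of -0.23 and none past 2-fold. The highest, Tsc22d3 (GILZ), was at 160 RPKM in naive CD4 and 163 RPKM in naive CD8. Named after their values were known, Sgk1 was at 32.1 RPKM in naive CD4 and 43.5 RPKM in naive CD8, a ratio of 0.737 (0.704 to 0.772), and Dusp1 was at 27.7 RPKM in naive CD4 and 38.9 RPKM in naive CD8, a ratio of 0.714 (0.664 to 0.766). Both intervals lay wholly below 1, as did those of 25.9% of compared genes with recovered reads. The intervals of the other 2 compared genes of the list spanned 1. Tsc22d3 had a ratio of 0.977 (0.949 to 1.004) and Fkbp5 a ratio of 1.05 (0.975 to 1.14). Of 6 immediate early genes 3 were above 0 and 3 below, with a median of 0.02 and none past 2-fold. The highest, Junb, was at 108 RPKM in naive CD4 and 166 RPKM in naive CD8, a ratio of 0.653 (0.630 to 0.677). The rest of the list was named after its values were known. Fos had a ratio of 0.703 (0.668 to 0.740). Jun, at 1.17 (1.12 to 1.23), and Nr4a1, at 1.44 (1.28 to 1.62), went the other way. The intervals of Fosb and Egr1 spanned 1. The summed level of the immediate early list was 236 RPKM in naive CD4 and 302 RPKM in naive CD8, and the part of either list in the Per1 difference was not tested.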

How the data were processed

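Ribosomal-RNA-depleted total RNA from naive T cells of both lineages was sequenced on SOLiD after a low-input preparation, 1 library for each cell type, per the labels' protocols. The submitters' processing notes name TopHat, HTSeq and mm9 and no versions, and neither annotation nor strand setting is stated. The authors deposited RPKM, with 1 value per row. Of 23167 symbols, 2597 stood on more than 1 row with identical values (Per1 and Cry2 among the clock genes) and were counted once. The members and all lists were chosen with earlier results of these data known. All 10 members are named, with the wider-list genes past 2-fold and the highest of each role, and the highest gene of each marker or response list with those past 2-fold. Some genes that the rule takes or the lists hold stand in the counts but are not reported here.

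Library totals were recovered as the largest at which most low genes had a whole-number length, since RPKM are whole reads over length and total. At these totals 99.3% of 12735 genes detected in both had whole reads and length to the precision of the files (9 decimals or 10 significant digits). A gene's length was the whole multiple nearest to its longest GENCODE M21 transcript, and intervals use the fewest reads the values allow, which for Nr1d2 are 498 and 601 in place of 996 and 1202. The calculations were tested on simulated data. With 1 library per group no test was possible. Promoters are from RefSeq, GRCm38.p6. Overlaps and stretches of 50 bases shared with other transcripts were read from GENCODE M21, the stretches on the longest transcript of each gene. Python 3.11.15, numpy 2.4.6, pandas 2.3.3 and scipy 1.17.1 were used. Alternatives were a minimum of 5 RPKM or none, pseudocounts of 0.1 and 5 RPKM, centring on the median gene, and rescaling to 10 housekeeping genes or to a sum of 1000000. No pseudocount and the interval rule were added after seeing the data. Ciart and Cipc were matched by older symbols through the RefSeq gene table.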

Additional observations from a re-analysis of the deposited data

How the results depend on the processing

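Arntl, Cry2 and Dbp stayed higher in naive CD4 under the other scalings tried (centring, sum and housekeeping). The Period genes and Nr1d2 stayed lower in naive CD4 under them. A pseudocount cannot change which library is higher, so the settings of 0.1 RPKM, 5 RPKM and none do not check a direction. Clock, Cry1 and Nr1d1 had log2 differences of -0.05, -0.08 and -0.00447 after centring, against 0.03, 0.01 and 0.08, so centring put 3 compared genes above 0 and 5 below, against 5 and 3. The interval rule, added after seeing the data, left 3 above and 3 below. The count of clock genes past 2-fold, 0 as reported, was 1 (Per1) with a pseudocount of 0.1 RPKM, with none, or after centring, and 1 (Dbp, at 1.13) when libraries were scaled to sums of 1000000. That rescaling moved the median of all genes by 0.21, to 0.29, and put 517 genes higher and 285 lower in naive CD4, against 247 and 314. Per1 was at -0.84 there and at -0.56 with a pseudocount of 5 RPKM. The wider list had 3 genes past 2-fold, 1 with a filter at 5 RPKM, 0 with a pseudocount of 5 RPKM, and 4 with a pseudocount of 0.1 RPKM or none. The gene gained was Wee1 (0.474 RPKM in naive CD4 and 1.18 RPKM in naive CD8). Its interval spans 1 (0.111 to 1.22) at the fewest reads its values allow, 5 and 12. With the recovered 40 and 96 reads it is 0.271 to 0.587. All genes past 2-fold numbered 561, and 890, 198, 891 and 360 with pseudocounts of 0.1 and 5 RPKM, with none, and with a filter at 5 RPKM. These follow from how the settings weigh or drop low genes. No paired analysis was possible because each group has 1 library. Depth limits Nr1d1 and Per3 most, at 21 and 51 reads in naive CD4.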
